A study of Rattus norvegicus with 8 samples.

Results

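Ephx1, the microsomal epoxide hydrolase, was examined in the rat thyroid beside 8 detoxification genes that are known targets of the transcription factor NRF2. The genes were Ephx1, Nqo1, Hmox1, Gclc, Gclm, Srxn1, Slc7a11, Gsta4, and Gstm1. Ephx1 was chosen by its difference between 4m0Gy and 4m4Gy in these same samples, so its values in that comparison are a description and carry no test. The other 8 were added for their known biology, to see whether they moved with Ephx1 over the 4 groups. Earlier results of these data were known when they were chosen. Of the 9 genes named, 8 were found by symbol among 30560 gene identifiers, and 7 passed the filter on low counts over all 8 samples. Srxn1 was not found among them by its symbol, and its expression was not analysed here.

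The thyroid of male Wistar rats was sequenced, with 2 RNA samples in each of 4 groups. The 1w0Gy rats were sham-irradiated and the 1w4Gy rats received 4 Gy of cervical X-rays at 1 week of age, and the 4m0Gy and 4m4Gy rats were treated in the same ways at 4 months of age. All thyroids were taken 8 weeks after that treatment, so the 1w and 4m rats differed in age at irradiation and in age at sampling, which cannot be told apart. By the study's methods the samples came from different rats, and those sequenced were picked in each group for their higher RNA integrity.

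NRF2, encoded by Nfe2l2, is held at a low level by KEAP1, which marks it for degradation. Oxidants and electrophiles release it from KEAP1, and it then binds antioxidant response elements with a small MAF protein and turns on enzymes that conjugate, reduce, or export reactive compounds. Microsomal epoxide hydrolase opens reactive epoxides to diols and is also induced through other xenobiotic receptors. The thyroid is exposed to hydrogen peroxide because thyroperoxidase uses it to make hormone.

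Each sample held between 14835400 and 18138102 counts on genes. Thyroglobulin took 18.5% to 21.3% of them, and all 8 thyrocyte markers were detected. Cdkn1a, a cell cycle inhibitor induced by irradiation, was at 15.1 and 14.4 CPM (counts scaled to a common library size after TMM normalization) in 1w0Gy and at 46.6 and 38.5 CPM in 1w4Gy. It was at 17.4 and 15.4 CPM in 4m0Gy and at 46.4 and 38.1 CPM in 4m4Gy. The irradiated samples lay above the sham-irradiated samples at both ages. Its log2 fold change was 1.53 at 1 week and 1.36 at 4 months. At neither age did it pass edgeR's quasi-likelihood test at an adjusted p under 0.05. Over both ages it passed, with a log2 fold change of 1.45. A gene that did not pass at a single age was thus not shown to be unchanged.

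The core of the antioxidant response element, TGACNNNGC, was looked for on both strands in RefSeq promoters of build GRCr8, each running from 250 bases before to 50 bases after a gene start. It was found in 12.1% of 33469 promoters. Entries existed for 8 of the 9 genes, with a pair of starts for Ephx1, and 2 of these 9 promoters held the core. They are shown because 1 belongs to Ephx1, with the match in capitals and 10 bases on each side. The Ephx1 stretch is at chr13:95263156-95263184, plus strand, with the match 57 to 49 bases before the start on the minus strand. The Gclm stretch is at chr2:213031953-213031981, minus strand, with the match 172 to 164 bases before the start on the plus strand.
Ephx1: atagccccaaTGACTCAGCtgatctgttg
Gclm: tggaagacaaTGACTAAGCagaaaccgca
The Ephx1 match also holds the AP-1 motif TGACTCA, which overlaps it. The other Ephx1 start and the entries for Nqo1, Gclc, Gsta4, Gstm1, Slc7a11, and Srxn1 did not hold these letters in this window.

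Levels were compared between genes as CPM per kb of the counted transcript. Gsta4, a glutathione transferase acting on lipid peroxidation products, was highest with a mean of 115 CPM per kb over the 8 samples. It was followed by Ephx1 at 55.8, Nqo1 at 36.5, Gclc at 18.2, Gclm at 15.5, Hmox1 at 8.45, and Gstm1 at 5.22 CPM per kb. Slc7a11 was lowest at 0.030 CPM per kb. The sample ranges overlapped between Ephx1 and Nqo1, between Gclc and Gclm, and between Hmox1 and Gstm1, and the other neighbours in this order did not overlap.

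**Figure D1:**
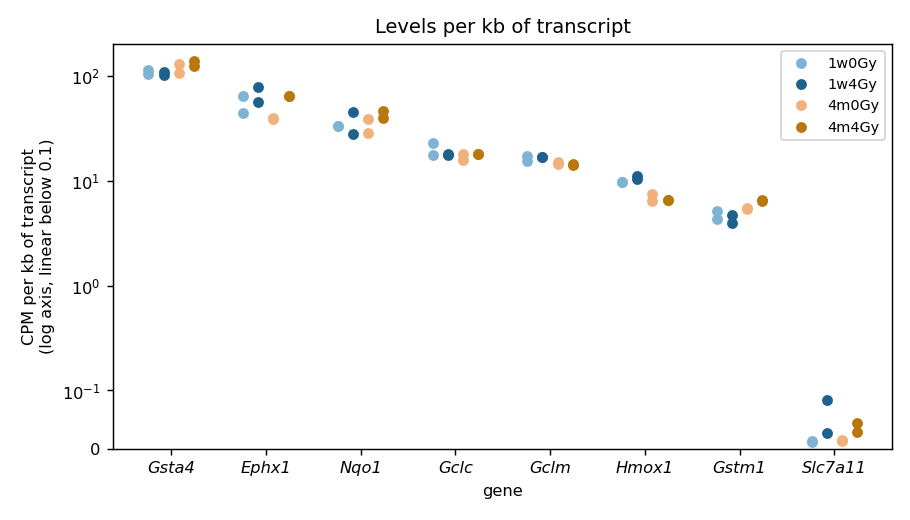
Level of each gene in CPM per kb of the counted transcript (log axis, linear below 0.1), with 1 point per sample and a colour per group (n = 2). Gsta4 lies above the other genes in all 8 samples, and Slc7a11 lies below the others.

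Ephx1 was at 112 and 77.1 CPM in 1w0Gy, at 97.4 and 136 CPM in 1w4Gy, at 67.7 and 69.2 CPM in 4m0Gy, and at 112 and 112 CPM in 4m4Gy. The 4m0Gy samples were the lowest of the 8, and both 4m4Gy samples lay inside the range of the 1w groups. Group means were 117 ± 27.6 (SD, n = 2) in 1w4Gy, 112 ± 0.344 in 4m4Gy, 94.3 ± 24.4 in 1w0Gy, and 68.5 ± 1.06 CPM in 4m0Gy. In that order 1w4Gy, 4m4Gy, and 1w0Gy did not differ beyond their spread. The log2 fold change of Ephx1 between 4m4Gy and 4m0Gy was 0.71 (SE 0.070), the value by which the gene was chosen. At 1 week it was 0.31 (SE 0.21, 95% interval -0.18 to 0.80), with an adjusted p of 0.876 in edgeR's quasi-likelihood test. The interaction, the log2 difference between the changes at both ages, was 0.40 (SE 0.26). Between 4m0Gy and 1w0Gy the log2 fold change was -0.46 (SE 0.16). Both of these use samples of the comparison that chose the gene and are given with no test.

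**Figure D2:**
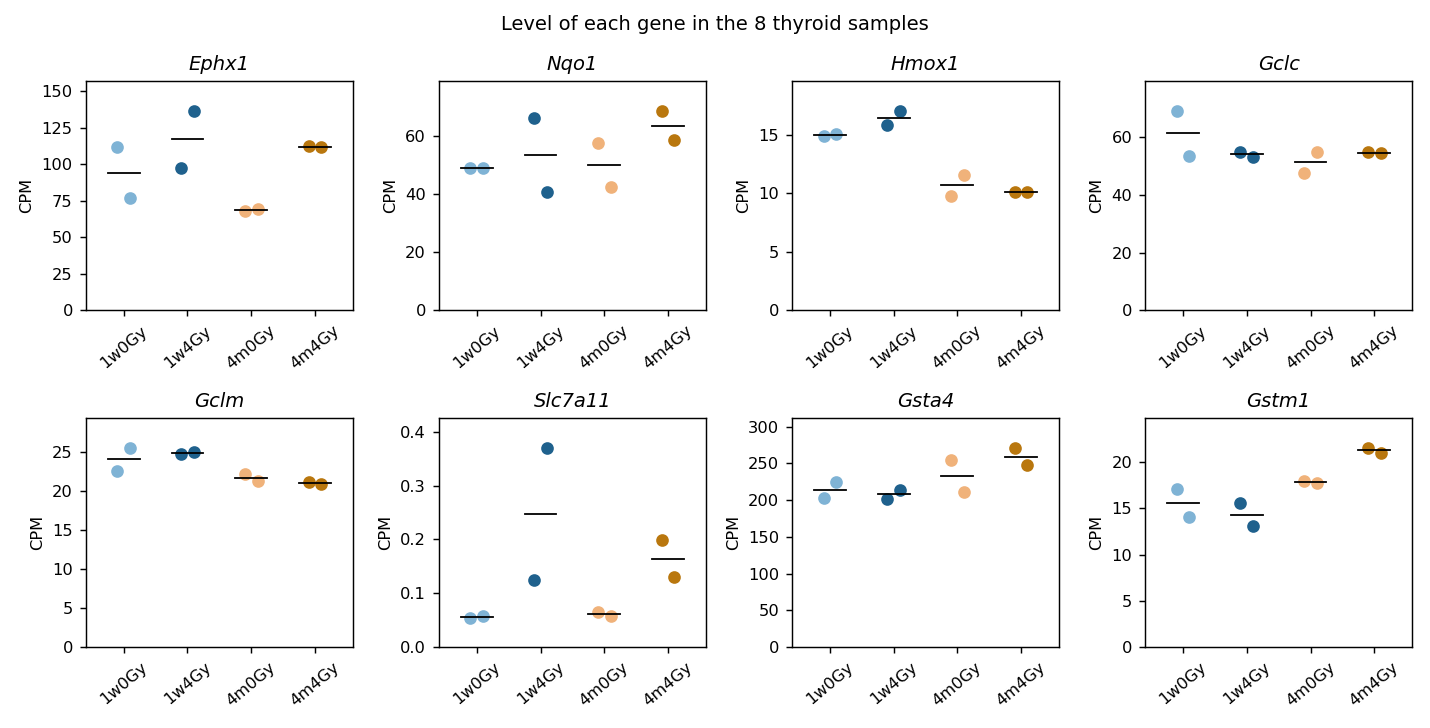
CPM of the 8 detected genes in each sample, with 1 panel per gene, 1 point per sample, and a bar at the group mean (n = 2). Ephx1 is lowest in 4m0Gy, and Hmox1 is lower in all 4m samples than in all 1w samples.

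NAD(P)H quinone dehydrogenase 1, Nqo1, reduces quinones and is widely read as an NRF2 target. It was at 48.7 and 49.0 CPM in 1w0Gy, at 66.0 and 40.8 CPM in 1w4Gy, at 57.4 and 42.3 CPM in 4m0Gy, and at 68.5 and 58.5 CPM in 4m4Gy. The 1w4Gy samples lay on either side of the 1w0Gy samples, and the 4m4Gy samples lay above the 4m0Gy samples. The log2 fold change was 0.13 (SE 0.20, adjusted p = 0.950 by edgeR) at 1 week and 0.35 (SE 0.15, adjusted p = 0.627) at 4 months.

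Heme oxygenase 1, Hmox1, breaks down heme and is also high in macrophages that clear red blood cells. It was at 14.9 and 15.1 CPM in 1w0Gy and at 15.9 and 17.1 CPM in 1w4Gy. In 4m0Gy it was at 9.82 and 11.6 CPM and in 4m4Gy at 10.1 and 10.2 CPM. All 4 samples of the older rats lay below all 4 samples of the younger rats. The log2 fold change between the ages over both doses was -0.59 (SE 0.095, adjusted p = 0.0115 by edgeR), and Hmox1 was the only one of the 7 genes tested that passed in this comparison. Irradiation gave a log2 fold change of 0.14 (SE 0.12, adjusted p = 0.901) at 1 week and -0.08 (SE 0.16, adjusted p = 0.910) at 4 months.

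The macrophage markers moved with Hmox1 between the ages. Their summed level was 142 to 183 CPM in the 1w samples and 84.1 to 123 CPM in the 4m samples. All 8 of the 9 listed markers that were tested were lower in the older rats over both doses. All 8 had an unadjusted p under 0.05 by edgeR, against 20.6% of all genes. Csf1r, C1qc, Cd163, and Mrc1, 4 of the 8, passed the test, against 4.25% of all genes. Vsig4 was at 0 counts in 6 of 8 samples. The fibroblast markers summed to 1688 to 2322 CPM in the 1w samples and 654 to 874 CPM in the 4m samples, with Col1a1 at a log2 fold change of -2.51 (adjusted p = 4.0e-05 by edgeR). The adipocyte markers summed to 299 to 563 and 157 to 379 CPM. The red blood cell markers summed to 461 to 571 and 297 to 395 CPM. Of the 2 that were found, Hba-a2 was lower and Slc4a1 was higher in the older rats. Slc4a1 was at 2.97 to 5.53 CPM in the 1w samples and at 6.59 to 9.09 CPM in the 4m samples. The C cell markers summed to 3260 to 5658 and 6152 to 8279 CPM. Over both doses 2 of the 4 rose, both with an unadjusted p under 0.05 by edgeR, against 20.6% of all genes. Of these 1 passed the test, against 4.25% of all genes. Chga and Scg2 did not rise. Chga was at 1112 to 2448 CPM in the 1w samples and at 299 to 2353 CPM in the 4m samples. In 4m4Gy it was at 2353 and 299 CPM, beside the parathyroid marker Pth at 5202 and 298 CPM. The adipocyte sums by dose were 563 and 445 CPM in 1w0Gy and 299 and 315 CPM in 1w4Gy. They were 178 and 379 CPM in 4m0Gy and 202 and 157 CPM in 4m4Gy. At 1 week all 7 adipocyte markers fell with an unadjusted p under 0.05 by edgeR, against 5.74% of all genes, and 0 were called. At 4 months 2 of the 7 did, against 8.04%. All 3 endothelial markers rose at 1 week with an unadjusted p under 0.05 by edgeR, and 0 of 3 did at 4 months. Over both ages 6 adipocyte markers fell and 3 endothelial markers rose at that limit, against 4.04% of all genes. Of the 3 parathyroid markers, 2 fell at that limit at 1 week. Of these, 0 were called. Of 5 skeletal muscle markers 0 reached it at either age. They summed to 12.4 and 88.5 CPM in 1w0Gy and 48.2 and 6.67 CPM in 1w4Gy. The parathyroid markers summed to 5367 and 343 CPM in 4m4Gy, beside 5482 and 3956 CPM in 4m0Gy. The part of these markers in the Hmox1 difference and in the irradiation comparisons was not tested. In these bulk samples fewer cells of a type and less RNA per cell cannot be told apart.

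**Figure D3:**
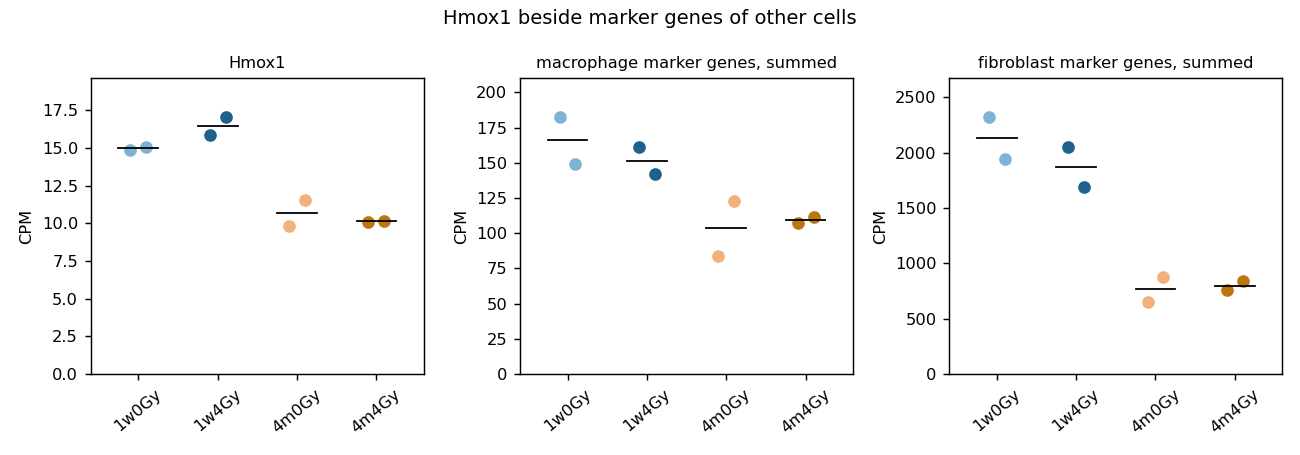
Hmox1 CPM beside the summed CPM of 9 macrophage and 4 fibroblast marker genes, with 1 point per sample and a bar at the group mean (n = 2). Hmox1 and both marker sums are lower in the 4m samples than in the 1w samples, without overlap.

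Gclc and Gclm encode the catalytic and modifier subunits of glutamate-cysteine ligase, which makes the first intermediate of glutathione. Gclc was at 69.2 and 53.6 CPM in 1w0Gy, 55.1 and 53.3 CPM in 1w4Gy, 47.7 and 54.9 CPM in 4m0Gy, and 55.0 and 54.6 CPM in 4m4Gy, and its groups overlapped in both irradiation comparisons. Gclm was at 22.6 and 25.6 CPM in 1w0Gy, 24.7 and 25.1 CPM in 1w4Gy, 22.2 and 21.3 CPM in 4m0Gy, and 21.2 and 20.9 CPM in 4m4Gy. All 4m samples of Gclm lay below all 1w samples, with a log2 fold change of -0.19 (SE 0.072) and an adjusted p of 0.158 by edgeR, which did not pass.

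Slc7a11, the cystine transporter that supplies cysteine for glutathione, had 1 count in each 1w0Gy sample, 2 and 6 counts in the 1w4Gy samples, 1 count in each 4m0Gy sample, and 3 and 2 counts in the 4m4Gy samples. It did not pass the filter on low counts and was not tested. All 4 sham-irradiated samples were below 3 counts, the limit that a count of 0 allows, so no fold was computed. The irradiated samples had more counts than the sham-irradiated samples at both ages, at counts too low for the filter.

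Gsta4 was at 203 and 225 CPM in 1w0Gy, 202 and 214 CPM in 1w4Gy, 254 and 212 CPM in 4m0Gy, and 271 and 247 CPM in 4m4Gy. Its groups overlapped in both ages' irradiation comparisons, and its age difference over both doses had a log2 fold change of 0.22 (SE 0.078, adjusted p = 0.143 by edgeR). Gstm1, a glutathione transferase of the mu class, was at 17.1 and 14.1 CPM in 1w0Gy, 15.5 and 13.1 CPM in 1w4Gy, 18.0 and 17.7 CPM in 4m0Gy, and 21.6 and 21.04 CPM in 4m4Gy. All 4m samples of Gstm1 lay above all 1w samples, with a log2 fold change of 0.38 (SE 0.11, adjusted p = 0.0797 by edgeR). At 4 months irradiation gave Gstm1 a log2 fold change of 0.25 (SE 0.10, adjusted p = 0.611). Glutathione transferases have near-identical copies, and how reads were divided among them makes both genes uncertain.

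Irradiation at 1 week passed for 0 of the 7 genes tested at an adjusted p under 0.05 by edgeR, against a background of 0% of 15359 genes. The same genes had 0 unadjusted p under 0.05, against 5.74% of all genes, and DESeq2's Wald test called 0 of them. Their median log2 fold change was 0.05 and that of all genes was -4.7e-06. The groups did not overlap for 1 of the 7 genes, Hmox1, against 35.5% of all genes.

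Irradiation at 4 months passed for 0 of the 6 genes other than Ephx1 by edgeR, against a background of 0% of 15253 genes. Gstm1 was the 1 gene of the 6 with an unadjusted p under 0.05 (adjusted p = 0.611), against 8.04% of all genes, and DESeq2 called 0 of the 6. The median log2 fold change of the 6 was 0.12, beside 0.0091 over all genes. Nqo1, Gclm, and Gstm1, 3 of the 6, did not overlap between the groups, against 39.6% of all genes, with Gclm lower and the others higher in 4m4Gy.

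Age in the sham-irradiated rats passed for 0 of the 6 genes other than Ephx1 by edgeR, against 0.722% of 15364 genes. Hmox1 was the 1 gene of the 6 with an unadjusted p under 0.05 (adjusted p = 0.164), against 17.7% of all genes, and DESeq2 called 0 of the 6. The interaction of age and irradiation passed for 0 of the 6 genes other than Ephx1, against 0% of 15684 genes. None of the 6 had an unadjusted p under 0.05 by edgeR (0 of 6, against 9.12% of all genes), and DESeq2 called 0. Irradiation over both ages passed for 0 of these 6 genes, against 0.00638% of genes, with 0 of 6 under an unadjusted p of 0.05 against 4.04%, and 0 of 6 without overlap against 1.54%. DESeq2 called 0 of the 6 there too. Age over both doses passed for 1 of 7 genes, Hmox1, against 4.25% of genes. Hmox1, Gclm, Gsta4, and Gstm1, 4 of the 7, had an unadjusted p under 0.05, against 20.6% of all genes. In this comparison 3 of 7 genes, Hmox1, Gclm, and Gstm1, did not overlap between the ages, against 12.8% of genes. The median log2 fold change of all 7 was -0.12 beside -0.0021 over all genes.

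**Figure D4:**
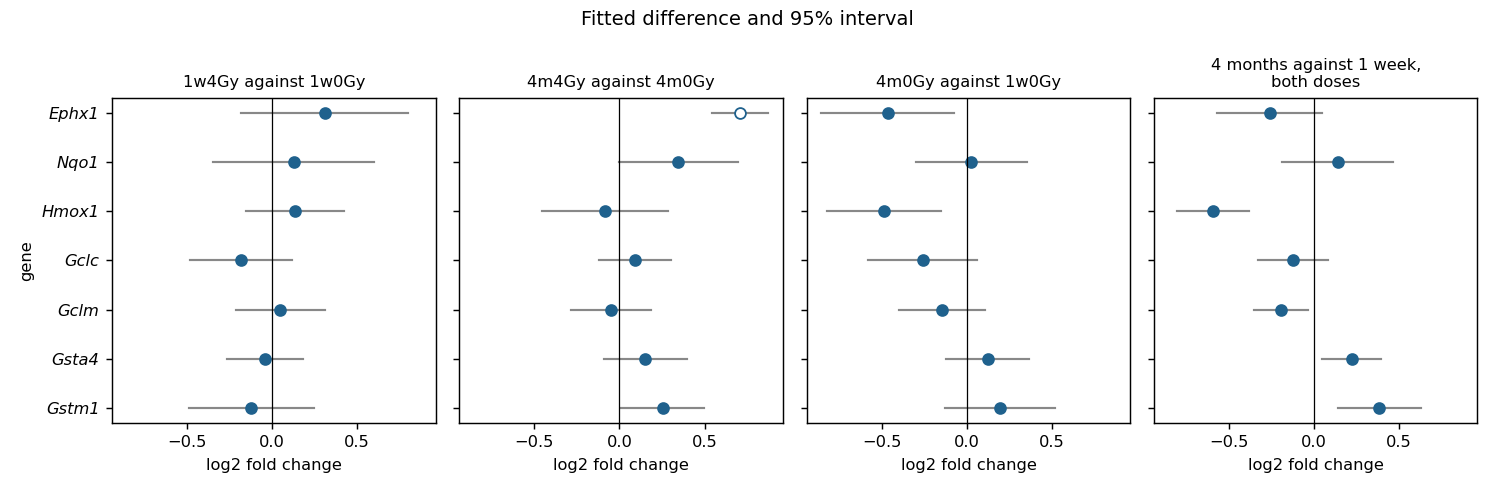
Fitted log2 fold change (points) with its 95% interval (lines) of the 7 tested genes in 4 comparisons (n = 2 per group, or 4 per age in the last panel). The open point is Ephx1 in the comparison that chose it, and Hmox1 between the ages is the single value that passed the test.

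No relation of the other genes with Ephx1 over the 8 samples passed the test. The permutations exchanged samples between the 4 groups, so they do not separate group differences from likeness within groups. The 4m values of Ephx1 used here are also those that chose it. Pearson's r of log2 CPM with Ephx1 was 0.42 for Gclc, 0.35 for Hmox1, 0.11 for Gclm, 0.05 for Nqo1, -0.04 for Gstm1, and -0.06 for Gsta4. Spearman's rho was 0.19, 0.33, -0.07, 0.05, -0.05, and 0.10 in the same order. The lowest of these 12 exact permutation p-values was 0.349 (Gclc, r), and after Benjamini-Hochberg adjustment over 7 relations all 6 genes had adjusted values of at least 0.875. Slc7a11 had an r of 0.76 (exact permutation p = 0.0262, adjusted p = 0.184) and a rho of 0.67 (exact permutation p = 0.0831, adjusted p = 0.582), and rests on 1 to 6 counts per sample. Without the 2 samples farthest from the Ephx1 median, both of 4m0Gy, r was 0.11 for Gclc, -0.07 for Hmox1, -0.34 for Gclm, -0.23 for Nqo1, 0.14 for Gstm1, 0.07 for Gsta4, and 0.75 for Slc7a11. Of 15683 genes ranked by r with Ephx1, 12.1% lay above Gclc, 17.2% above Hmox1, 39.3% above Gclm, 45.4% above Nqo1, 54.5% above Gstm1, and 56.6% above Gsta4. The genes most like Ephx1 were Acd (r = 0.97, n = 8), Ttc19 (0.95), AC098622.1 (0.95), Limk1 (0.93), Kif20b (0.92), Pecr (0.90), Smarcad1 (0.90), and 3 identifiers without a name. These are the 10 highest of 15683 values over 8 samples, and how high such a search reaches by chance was not tested. AC098622.1 was at 0.41 to 0.80 CPM and Kif20b at 0.84 to 1.54 CPM.

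The regulators of NRF2 passed in no comparison (0 of 10 tested by edgeR in each). Nfe2l2 had a log2 fold change of 0.06 at 1 week, 0.08 at 4 months, and -0.24 between the ages over both doses (adjusted p = 0.158). Keap1 had -0.08, -0.01, and -0.04. Maff, a small MAF protein, had the widest change with irradiation, 0.30 at 1 week and 0.18 at 4 months, and Mafg had -0.24 between the ages (adjusted p = 0.0903).

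Of 25 other NRF2 targets tested, 0 passed with irradiation at either age by edgeR. At 1 week 1 of them had an unadjusted p under 0.05 upward and 1 downward, against 5.74% of all genes, with a median log2 fold change of 0.02. At 4 months 7 had one upward and 1 downward, against 8.04% of all genes, with a median log2 fold change of 0.12 beside 0.0091 over all genes. The 7 were Prdx1, Taldo1, Fth1, Ftl1, Cbr1, Gpx2, and Aldh3a1. Abcc1 was the 1 downward, with -0.50 on the log2 scale (SE 0.099, adjusted p = 0.507 by edgeR). The widest changes were those of Aldh3a1 and Akr1b8. Aldh3a1, an aldehyde dehydrogenase, had 1.45 (SE 0.51, adjusted p = 0.580), with 4m0Gy at 0.39 and 1.11 CPM. Akr1b8 had -0.78 (SE 0.52, unadjusted p = 0.176, adjusted p = 0.739 by edgeR), with 4m0Gy at 2.46 and 7.68 CPM. Between the ages over both doses 1 of 25 rose and 3 fell, against 4.25% of all genes called in either direction. Ptgr1, which reduces leukotriene and prostaglandin products, rose by 0.40 on the log2 scale (adjusted p = 0.0315). Tkt, transketolase of the pentose phosphate pathway, fell by 0.40 (adjusted p = 0.0147), Ugdh fell by 0.53 (adjusted p = 0.0275), and Osgin1 fell by 0.61 (adjusted p = 0.0409). Osgin1 was at 62.4 and 75.0 CPM in 1w0Gy, 41.5 and 60.4 CPM in 1w4Gy, 37.5 and 36.8 CPM in 4m0Gy, and 37.0 and 43.6 CPM in 4m4Gy, and 1 sample of each irradiated group brought the ages into overlap.

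Of the other glutathione transferases, 0 of 19 passed at 1 week and 0 of 18 at 4 months by edgeR. Gsta2 had -0.65 (SE 0.38) and -0.64 (SE 0.77) on the log2 scale, with 4m4Gy at 6.04 and 0.65 CPM. Gstm4 rose between the ages over both doses by 0.49 on the log2 scale (adjusted p = 0.0261) and was 1 of 19 tested, against 4.25% of all genes. The other epoxide hydrolases Ephx2, the soluble enzyme, and Ephx3 passed in no comparison (0 of 2 tested), with Ephx2 at 0.15 and Ephx3 at -0.04 on the log2 scale at 4 months. In the glutathione cycle 2 of 17 genes rose between the ages over both doses, against 4.25% of all genes called. Ggt7, of the gamma-glutamyltransferase family, was at 5.31 to 7.09 CPM in the 1w samples and at 10.6 to 15.0 CPM in the 4m samples (log2 fold change 1.06, adjusted p = 0.00393). Slc3a2, the partner chain of the Slc7a11 transporter, rose by 0.30 (adjusted p = 0.0354). With irradiation 0 of 17 passed. Chac1, which degrades glutathione, had 0.70 at 1 week and 0.80 at 4 months (SE 0.44 and 0.43, adjusted p = 0.876 and 0.677). It was at 0.52 to 1.23 CPM over the 8 samples.

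In the heme and iron list 0 of 12 passed in any comparison by edgeR. At 4 months 4 of the 12 had an unadjusted p under 0.05 upward and 1 downward, against 8.04% of all genes. Upward were Fth1, Ftl1, Slc48a1, and Tfrc, and downward was Flvcr1. Fth1 and Ftl1 are also among the other NRF2 targets above. Ftl1, the ferritin light chain, had 0.34 at 4 months (adjusted p = 0.507), and Tfrc, the transferrin receptor, had -0.33 between the ages (adjusted p = 0.0624). Among the xenobiotic receptors and enzymes 0 of 15 passed with irradiation at either age, and 3 of 15 fell between the ages over both doses, against 4.25% of all genes called. They were Ahr, the aryl hydrocarbon receptor, with a log2 fold change of -0.42 (adjusted p = 0.0309), its target Cyp1b1 with -1.06 (adjusted p = 0.0107), and the sulfotransferase Sult1a1 with -0.52 (adjusted p = 0.0316). Cyp1b1 was at 5.87 to 10.3 CPM in the 1w samples and at 3.55 to 4.63 CPM in the 4m samples.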

How the data were processed

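The authors mapped the reads with HISAT2 2.2.1 and counted them with featureCounts 2.0.0, per the labels, and deposited raw counts for each transcript beside RPKM and TPM values. The genome build is not given in the sources used here. The deposited TPM were used only for the order of levels, and the RPKM were not used. The counted transcript was the one with the highest total per gene. Per-sample counts on genes were 14835400 to 18138102.

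Tests used R 4.3.3 with edgeR 4.0.16 (TMM, filterByExpr, glmQLFit and glmQLFTest with default settings, Benjamini-Hochberg adjustment, called at an adjusted p under 0.05) and DESeq2 1.42.0. SE is the absolute log2 fold change divided by the square root of the F statistic. Irradiation at each age and age in sham-irradiated rats were fitted on their own 4 samples, the other comparisons on all 8. Log2 CPM used a prior count of 2. The edgeR fit was run in 3 forms, with defaults, with robust quasi-likelihood fitting, and with robust dispersion as well, and the last pair gave the same values. The defaults were kept as the form the design named, and robust fitting is an alternative chosen after seeing the data. Scripts were tested on simulated data. The genes named are the 9 members, Nfe2l2, Keap1, Cdkn1a, the called genes of each list (or the widest changes), and the 10 genes most like Ephx1. Some cell markers are also named. So are the other NRF2 targets and the heme and iron genes with an unadjusted p under 0.05 at 4 months. The members and lists were chosen with earlier results of these data known. Alternatives were other normalizations, filters, transcript choices, a replicate block, fold limits, and leaving out each sample.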

Additional observations from a re-analysis of the deposited data

How the results depend on the processing

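Hmox1 between the ages over both doses kept its direction and passed under all settings without fold limits (log2 fold change -0.66 to -0.55 when each sample was left out). With the fold limits of above 1.5 or under 0.5, 0 of the 7 genes were called in that comparison. Leaving out each sample gave 1 to 2 called there, the second being Gstm1 without 1w0Gy replicate 1 (0.48, adjusted p = 0.0416 by edgeR), and 0 to 0 in the other comparisons. Robust fitting, chosen after seeing the data, called 1, 3, 163, 0, 2, and 669 genes of all genes in the order irradiation at 1 week, irradiation at 4 months, age in sham-irradiated rats, interaction, irradiation over both ages, and age over both doses. The default fit called 0, 0, 111, 0, 1, and 666. Ephx1 at 4 months was among the genes called with robust fitting and by DESeq2 and not among those called by default. The gene was chosen on this comparison, so these calls are a description and give it no support. DESeq2 called 21, 9, 344, 21, 12, and 1039 genes, and without a filter edgeR called 0, 2, 436, 2, 3, and 934. Summed transcripts gave 17 genes for age in sham-irradiated rats. Leaving out 1 sample gave 0 to 80, 1 to 38, 0 to 646, 0 to 0, 1 to 3, and 266 to 631. The causes were not tested.

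Same-numbered samples shared only a number (correlation of deviations -0.23 to 0.15). With the replicate number as a block, 0 of the members were called in the first 5 comparisons and 1 in the last, and 14, 2, 20, 0, 1, and 691 of all genes.

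None of the reversed differences had passed the test. Gclm for irradiation over both ages turned to -0.00075 by DESeq2, -0.00038 with DESeq2's size factors, and -0.0063 with summed transcripts. Leaving out each sample gave ranges that crossed 0. At 1 week they were -0.26 to 0.43 for Nqo1, -0.35 to 0.017 for Gclc, -0.037 to 0.14 for Gclm, -0.11 to 0.034 for Gsta4, and -0.25 to 0.027 for Gstm1. At 4 months they were -0.20 to 0.035 for Hmox1 and -0.0085 to 0.19 for Gclc. For age in sham-irradiated rats they were -0.21 to 0.23 for Nqo1 and -0.015 to 0.25 for Gsta4, and for the interaction -0.079 to 0.61 for Nqo1. For irradiation over both ages they were -0.0084 to 0.098 for Hmox1, -0.11 to 0.065 for Gclc, -0.039 to 0.028 for Gclm, and -0.017 to 0.10 for Gsta4. For age over both doses the range was -0.0025 to 0.26 for Nqo1. Ranges that moved by over 1.5 times without crossing 0 were 0.045 to 0.60 for Ephx1 and 0.082 to 0.19 for Hmox1 at 1 week, 0.13 to 0.58 for Nqo1 at 4 months, 0.11 to 0.67 for the interaction of Ephx1, and -0.71 to -0.17 for Ephx1 with age in sham-irradiated rats, among the values printed above.

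The likeness to Ephx1 passed for 0 of 7 genes, and for 0 to 1 when each sample was left out. The exception was Slc7a11 without 1w0Gy replicate 1 (r = 0.93), which leaves 1 sample in 1w0Gy. It rests on 1 to 6 counts per sample, and the gene did not pass the filter on low counts. Centred within each age, r turned to -0.43 for Gclm, 0.29 for Gsta4, and 0.44 for Gstm1. Leaving out each sample, r was -0.24 to 0.51 for Nqo1, -0.20 to 0.36 for Gclm, -0.31 to 0.20 for Gsta4, and -0.22 to 0.44 for Gstm1.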
